A study of Mus musculus with 6 samples.

Results

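Heat shock proteins, the CCT chaperonin and prefoldin were examined across 3 expression chips in RNA labelled as from spermatogonia of Zfp145 knockout (Null) and wild-type (WT) mice. The members were the 82 genes, of 15964 genes named by probe sets with a single symbol, whose symbol belongs to the HSP70, HSP110, HSP90 or small heat shock families, the mitochondrial chaperonin pair Hspd1 and Hspe1, the J proteins of classes A, B and C, the CCT ring or prefoldin. They were covered by 180 of 36701 probe sets. All animals were 1 week old, and the background was 129sv/c57Bl6 for both genotypes. Zfp145, now Zbtb16 and also known as PLZF, is a zinc finger repressor of the BTB family. Each genotype was hybridised once to each chip of the mouse U74 version 2 set (U74Av2, U74Bv2, U74Cv2). The 6 arrays hold no replicates, so no test was made and no difference below has a replicate check. Neither the deleted stretch of Zfp145 nor the number of animals per sample is given in the labels.

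Chaperones bind unfolded or partly folded proteins and help them reach their native shape. HSP70 proteins work in cycles of ATP hydrolysis that J proteins start and HSP110 proteins help to reset, HSP90 proteins act on later folding steps of kinases and receptors, and small heat shock proteins hold unfolded clients without ATP. CCT is a closed double ring that folds actin and tubulin, which prefoldin hands to it. In the testis several of these genes have forms of their own that germ cells use in meiosis or afterwards, such as Hspa2 and Hspa1l.

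The promoters below are shown because they hold the control elements best known for these families, so that the values of the genes behind them can be read together. They are RefSeq windows of GRCm38.p6, each of 300 bases around the gene's start, 5′ to 3′ on the gene's strand. The first 3 hold a heat shock element of 3 units, the site of heat shock factors, which was searched as GAANNTTC followed by a further GAA unit, or TTCNNGAA followed by a further TTC unit, with 2 bases between units. Capitals mark it. The next 3 hold the endoplasmic reticulum stress element, searched as CCAAT and CCACG with 9 bases between them on either strand, also in capitals. Cct6a is shown for the chaperonin, with the cores TTCNNGAA or GAANNTTC and the CCAAT box in capitals.
Hspe1 (chr1:55087898-55088197, plus strand): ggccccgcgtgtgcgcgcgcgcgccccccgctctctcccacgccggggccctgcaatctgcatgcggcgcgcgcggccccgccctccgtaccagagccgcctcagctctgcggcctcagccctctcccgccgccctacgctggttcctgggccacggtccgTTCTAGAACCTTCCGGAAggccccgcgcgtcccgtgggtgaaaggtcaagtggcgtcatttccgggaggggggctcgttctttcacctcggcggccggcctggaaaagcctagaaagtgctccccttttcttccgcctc
Hsph1 (chr5:149636266-149636565, minus strand): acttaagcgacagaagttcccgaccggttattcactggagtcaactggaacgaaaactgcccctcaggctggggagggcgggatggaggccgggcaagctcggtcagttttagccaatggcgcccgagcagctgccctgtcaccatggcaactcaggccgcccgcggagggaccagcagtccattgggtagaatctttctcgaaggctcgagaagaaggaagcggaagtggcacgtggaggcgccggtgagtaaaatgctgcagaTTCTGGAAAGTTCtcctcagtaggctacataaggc
Dnajb6 (chr5:29735648-29735947, plus strand): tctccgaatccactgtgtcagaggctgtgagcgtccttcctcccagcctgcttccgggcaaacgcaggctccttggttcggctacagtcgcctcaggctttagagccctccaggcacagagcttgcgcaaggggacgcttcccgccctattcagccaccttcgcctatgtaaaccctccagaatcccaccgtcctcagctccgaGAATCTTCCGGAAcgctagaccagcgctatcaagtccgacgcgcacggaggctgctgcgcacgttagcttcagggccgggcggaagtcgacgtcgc
Hspa5 (chr2:34771840-34772139, plus strand): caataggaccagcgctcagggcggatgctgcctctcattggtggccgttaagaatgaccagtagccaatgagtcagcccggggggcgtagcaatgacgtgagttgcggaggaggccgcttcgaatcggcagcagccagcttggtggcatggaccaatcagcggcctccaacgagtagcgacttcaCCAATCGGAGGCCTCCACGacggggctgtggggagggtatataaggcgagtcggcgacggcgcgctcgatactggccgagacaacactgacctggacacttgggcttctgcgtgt
Hsp90b1 (chr10:86705395-86705694, minus strand): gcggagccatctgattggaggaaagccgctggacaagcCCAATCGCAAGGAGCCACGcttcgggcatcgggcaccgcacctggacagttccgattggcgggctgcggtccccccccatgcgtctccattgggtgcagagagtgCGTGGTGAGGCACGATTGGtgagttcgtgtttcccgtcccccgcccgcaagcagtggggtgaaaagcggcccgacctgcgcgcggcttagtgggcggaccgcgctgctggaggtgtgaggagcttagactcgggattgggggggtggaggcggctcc
Dnajc3 (chr14:118937682-118937981, plus strand): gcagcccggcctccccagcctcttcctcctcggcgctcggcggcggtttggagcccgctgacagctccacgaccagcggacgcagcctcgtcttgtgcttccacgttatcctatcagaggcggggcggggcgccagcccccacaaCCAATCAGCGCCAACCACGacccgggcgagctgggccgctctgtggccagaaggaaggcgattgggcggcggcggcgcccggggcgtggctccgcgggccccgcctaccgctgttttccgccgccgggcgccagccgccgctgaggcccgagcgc
Cct6a (chr5:129787106-129787405, plus strand): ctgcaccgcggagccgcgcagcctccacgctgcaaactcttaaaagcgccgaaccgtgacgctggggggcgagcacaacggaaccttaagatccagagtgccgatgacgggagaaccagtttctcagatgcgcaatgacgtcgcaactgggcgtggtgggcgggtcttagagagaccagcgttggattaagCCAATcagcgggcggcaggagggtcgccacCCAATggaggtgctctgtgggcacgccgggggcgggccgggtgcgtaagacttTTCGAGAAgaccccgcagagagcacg

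The table of promoters held 88 windows for 68 of the 82 members. A heat shock element of 3 units was found in 6 of these windows (6.82%), those of Hspe1, Hspd1, Hsph1 and Dnajb6, and in 198 of all 32851 windows (0.603%). Hspe1 and Hspd1 start back to back, and the element of the Hspe1 window lies in a window of Hspd1 too. The windows of Hsph1 overlap and hold the same element, as do those of Dnajb6. The share of windows thus counts some sites more than once. By gene it is 4 of 68 members, and no such share was taken over all genes. The shorter core stood in 21 member windows (23.9%), with those of Hspa1a and Hspa1b among them, and in 15.1% of all windows. An element of 3 units with a wider gap between them was not searched. The endoplasmic reticulum stress element was found in 3 member windows (3.41%) and in 39 of all windows (0.119%). The plain CCAAT box, which is part of that element, was in 37.5% of member windows and 37.4% of all windows, and TATAAA in 3.41% and 13.6%. All motifs were searched on both strands. A match is a stretch of letters and not a measured site.

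The targeted gene had less signal in Null on U74Av2 and U74Cv2, and no probe set of it was named on U74Bv2. Zbtb16 read 158.1 in Null and 770.2 in WT on U74Av2, a log2 ratio of -2.29, and 510.8 in Null and 1156.8 in WT on U74Cv2, 2.30-fold lower in Null. A second U74Av2 probe set was dim in both, at 16.7 in Null and 50.6 in WT. Of 17 markers of spermatogonia and germ cells 12 were measured, with 7 log2 ratios above 0, 5 below and a range of -1.32 to 0.56. The summed signals were 24328.8 in Null and 24724.7 in WT, and this sum rests mainly on Uchl1, Dazl and Tex101, at 0.14, 0.56 and -0.53. Sall4, at 1042.1 in Null and 2568.1 in WT, and Pou5f1, at 83.8 in Null and 283.4 in WT, were the 2 markers at least 2-fold lower in Null. Near-equal sums thus do not show equal germ cell content. The floor is the 40th percentile of both arrays of a chip, and a gene is called measured where at least 1 array exceeds it. The RNA also held signal of Sertoli cells, with all 12 markers measured, 9 log2 ratios below 0, a range of -1.04 to 0.59 and sums of 44670.6 in Null and 49307.3 in WT. It cannot be read as spermatogonia alone. Macrophage markers summed to 12949.7 in Null and 16792.1 in WT over 5 genes, mainly from Laptm5, at 10423 in Null and 13972.2 in WT. Leydig markers summed to 1269.9 in Null and 1671.6 in WT over 4 of 6, with Insl3 below the floor in both. The marker list with the lowest median was the erythroid one, at -0.59 over 2 of 4 genes, with sums of 2788.5 in Null and 4559.1 in WT. Endothelial markers had a median of 0.16 over 4 of 5 genes, and myoid markers of 0.02 over 3 of 4. The part of cell makeup in the values of the chaperones was not tested. In RNA of whole samples, fewer cells of a type and less RNA per cell cannot be told apart.

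Of the 82 members 77 had signal above the chip's floor on at least 1 array, and 74 on both. Dnajb5, Dnajb7, Dnajc22, Hspb9 and Cct8l1 lay at or below the floor on both arrays and give no ratio. Most members had nearly the same signal in both genotypes. The ratio of Null to WT lay within 1.25-fold for 55 of 77 members (71.4%), against 67.7% of the 12434 genes measured. The median log2 ratio was 0.03 over the members and -0.01 over all genes. As a yardstick for single ratios, the spread given beside them is the typical log2 disagreement between probe sets of 1 gene on the same chip at the same level. It ran from 0.15 for bright probe sets on U74Av2 to 0.60 for dim ones on U74Cv2.

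Large differences were few and about as frequent as among all genes. On U74Av2 2 of 45 members (4.44%) were at least 1.5-fold different in either direction, where 6.47% of all genes on that chip were, and 1 was at least 2-fold different, where 0.765% were. On U74Bv2 these were 2 of 19 members (10.5%) against 9.4% of all genes, and no member at 2-fold against 1.49%. On U74Cv2 they were 1 of 13 members (7.69%) against 22.4%, and that 1 gene at 2-fold against 8.59%. Counted by probe set, 4 of 69, 4 of 35 and 8 of 30 member probe sets were at least 1.5-fold different on the 3 chips, or 5.80%, 11.4% and 26.7%. The shares over all probe sets were 7.35%, 11.2% and 26.1%. The 5 genes past 1.5-fold were Pfdn6, Dnajc11 and Hspb1, higher in Null, and Pfdn4 and Dnajb12, lower in Null.

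**Figure D1:**
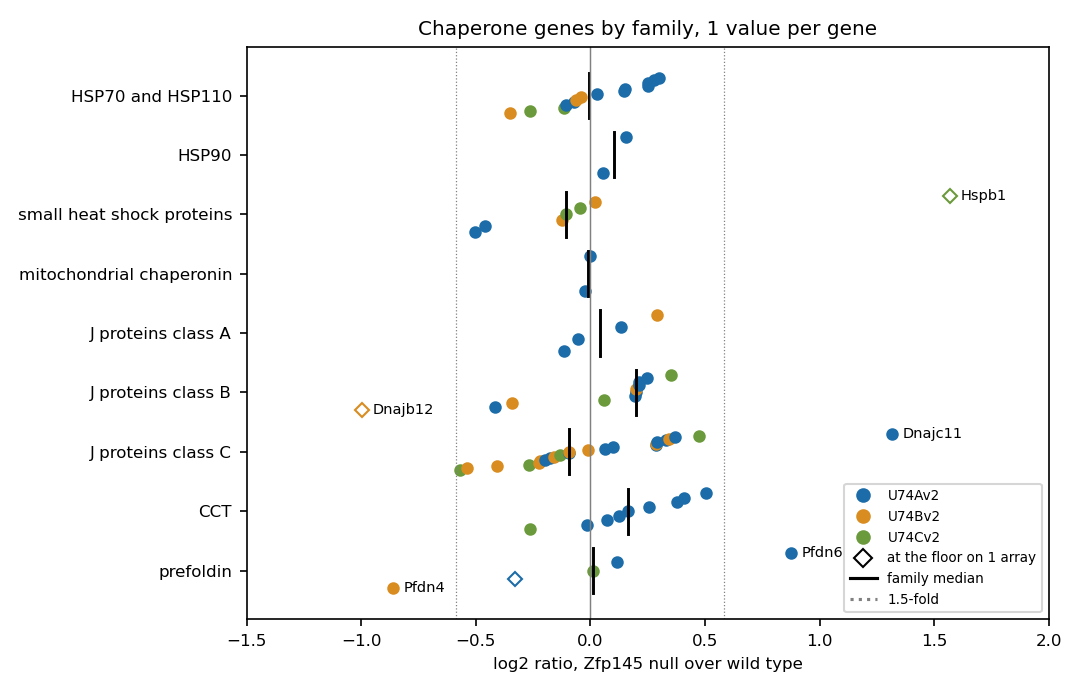
Log2 ratio of Null over WT (horizontal axis) for the 77 measured members, 1 point per gene from its brightest probe set by rank within a chip, in rows by family and coloured by chip. Open diamonds are genes at the floor on 1 array, black bars are family medians and dotted lines mark 1.5-fold. Most points lie between the dotted lines, and the 5 named genes lie outside.

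HSP70 genes were close to even. The family, with HSP110, had 14 measured members, a median log2 ratio of -0.01, 7 ratios above 0 and 7 below, and a range of -0.35 to 0.30. Hspa8, the constitutive cytosolic HSP70, had signals of 6984 in Null and 6245 in WT, a log2 ratio of 0.15. Hspa5, the BiP chaperone of the endoplasmic reticulum, read 3753.6 in Null and 3919.4 in WT, at -0.07. Hspa9, the mitochondrial HSP70 mortalin, read 2899.4 in Null and 2422 in WT on U74Av2, at 0.25, where the spread between probe sets of 1 gene was 0.15 at this level. A probe set of Hspa9 on U74Cv2 went the other way, at 1424.2 in Null and 2325.3 in WT, or -0.73, where that spread was 0.31. Hspa13, a microsomal HSP70 without the substrate-binding domain, read 6861.0 in Null and 7301.1 in WT, at -0.11. This rests on a U74Cv2 probe set whose name has a suffix. Much dimmer probe sets of Hspa13 gave -0.11 on U74Bv2 and 0.19 on U74Cv2, and the rest were under the floor on at least 1 array. The stress-induced copies Hspa1a and Hspa1b stood at 0.30 and -0.11. They are near-identical in coding sequence, and signal of one may be read by probes of the other. Hsph1, the HSP110 with the heat shock element shown above, read 949.7 in Null and 926.2 in WT, at 0.03. Its relative Hspa4 stood at 0.28, while its 4 other measured probe sets ran from -0.16 to 0.35. Hspa14, which works with Dnajc2 on the ribosome, read 962.1 in Null and 803 in WT, at 0.25. The distant relatives Hspa12a and Hspa12b stood at -0.06 and -0.35.

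Testis forms had no common direction. Hspa2, an HSP70 needed by spermatocytes, read 1892.4 in Null and 1942.2 in WT, a log2 ratio of -0.04, and -0.16 in another probe set. Hspa4l, an HSP110 relative of testis, stood at -0.26 on U74Cv2 and at -0.05 on U74Av2. Hspa1l, the HSP70 of spermatids, was near the floor at 152.1 in Null and 136.5 in WT. Cct6b, the testis form of a CCT subunit, read 845.8 in Null and 998.6 in WT on U74Cv2, at -0.26. Its dimmer probe set on U74Av2 read 101.1 in Null, just above the floor of 98.3, and 248.8 in WT, at -1.31. Dnajb13, a J protein of the sperm axoneme, read 183.3 in Null and 243.5 in WT, at -0.42. Dnajb3, a J protein of spermatids, stood at 0.20 on U74Av2 and at -0.85 on U74Cv2. Of 8 testis forms 7 were measured, with a median of -0.04, and Hspb9 was below the floor in both. Meiosis markers had a median of -0.24 over 5 of 8 genes. Their summed signal, 19315.9 in Null and 22345.6 in WT, rests mainly on Stag3, at -0.24 beside a spread of 0.31. Spermatid markers had a median of 0.38 over 5 of 8 genes, with 3 above 0, 2 below and a range of -0.54 to 0.94. The part of meiosis and spermatid markers in these values was not tested.

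HSP90 genes were even or slightly higher in Null. Hsp90aa1, the inducible cytosolic HSP90, read 10880.0 in Null and 9722.9 in WT, a log2 ratio of 0.15 beside a spread of 0.15. Hsp90b1, the GRP94 chaperone of the endoplasmic reticulum, read 3946.6 in Null and 3778.5 in WT, at 0.05. These were the HSP90 genes that the rule found, and Hsp90ab1 was not analysed here.

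Small heat shock proteins had a median of -0.11 over 7 measured members, 5 of them below 0. Hspb11, also known as IFT25 and part of the intraflagellar transport machinery, read 890.1 in Null and 1252.9 in WT, a log2 ratio of -0.50 beside a spread of 0.15. Hspb8, a partner of Bag3 in selective autophagy, read 181.7 in Null and 248.3 in WT, at -0.46 beside a spread of 0.35. Hspb2 and Hspb3, small heat shock proteins of muscle, stood at -0.05 and -0.11, with Hspb6 at 0.02 and Hspb7, of the heart, at -0.12. Hspb1, the heat-induced HSP27 type protein, read 374.5 in Null and 38.7 in WT on U74Cv2. With WT at the floor of 124 this is at least 2.97-fold higher in Null. The value rests on a single probe set of the kind that can be shared by a sequence family. The other probe set of Hspb1, on U74Av2, lay far under the floor in both genotypes, at 11.5 in Null and 8.9 in WT.

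The mitochondrial chaperonin pair gave ratios close to 0. Hspd1, the ring-forming HSP60, read 6211.6 in Null and 6172.4 in WT, a log2 ratio of 0.00. Hspe1, its HSP10 lid, read 4958 in Null and 5014.3 in WT, at -0.03. This pair shares the promoter shown above. Of the 4 genes with a heat shock element of 3 units, Dnajb6 had the highest ratio by its brightest probe set, at 0.25. Its other probe set above the floor gave -0.39. With the mean over probe sets Dnajb6 stood at -0.07, the lowest of the 4, so this order depends on the probe set. The 3 genes with the endoplasmic reticulum stress element were Dnajc3 at 0.29, Hsp90b1 at 0.05 and Hspa5 at -0.07.

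Class B J proteins were the J proteins with most ratios on the higher side. Of 11 measured members 8 were above 0, with a median of 0.20, while class A had a median of 0.04 over 4 and class C of -0.09 over 23. The order rests on the choice of probe set and chip. With the mean over probe sets the class B median was 0.04, and with U74Av2 alone it was 0.21, beside 0.18 for class C. Dnajb6, a suppressor of protein aggregation, read 3737.1 in Null and 3126.5 in WT, and Dnajb11, the J protein partner of Hspa5, read 1325.8 in Null and 1138.9 in WT. Their log2 ratios were 0.25 and 0.21. Dnajb4 stood at 0.20, Dnajb1, the heat-induced partner of HSP70 known as HSP40, at 0.21, and Dnajb8, a testis form, at 0.06. The Dnajb8 value rests on a U74Cv2 probe set whose name has a suffix. Its U74Av2 probe set lay under the floor, at 22.3 in Null and 93.3 in WT. Dnajb9, an endoplasmic reticulum J protein induced by unfolded proteins, stood at 0.20 and 0.18 in its probe sets, Dnajb2, a J protein with ubiquitin-binding motifs, at 0.35, and Dnajb14, of the endoplasmic reticulum membrane, at -0.34. Other probe sets did not all bear these values out. That of Dnajb6 gave -0.39, that of Dnajb1 gave -0.72, and that of Dnajb4 gave 0.85. Those of Dnajb2 gave 0.34, 0.60 and -0.35, and those of Dnajb14 above the floor gave 0.18 and 0.27. Dnajb12, a J protein anchored in the membrane of the endoplasmic reticulum, read 128.9 in Null, under the floor of 165, and 329.8 in WT. Null was thus at least 1.996-fold lower. Another Dnajb12 probe set on U74Bv2 had the opposite order, at 201.6 in Null and 80.9 in WT.

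Class A J proteins are the closest relatives of bacterial DnaJ. Dnaja1, a cytosolic partner of Hspa8, read 1372.8 in Null and 1414.9 in WT, a log2 ratio of -0.05. Dnaja3, the mitochondrial form known as Tid1, stood at 0.13, Dnaja2 at -0.12 and Dnaja4 at 0.29. A second Dnaja4 probe set on U74Bv2 read 262.5 in Null and 298.8 in WT, at -0.19. None went beyond the spread of its chip and level.

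Class C J proteins share only the J domain and serve many different tasks. Their ratios ran from -0.57 to 1.32, with 10 above 0 and 13 below. Dnajc8, a factor linked to the spliceosome, read 6049.7 in Null and 6898.3 in WT, at -0.20, and its other probe set gave -0.13. Dnajc2, the ribosome-bound J protein related to yeast zuotin, read 3081.5 in Null and 2371 in WT. Its log2 ratio was 0.37, and a second probe set on the same chip gave 0.40. The spread at this level was 0.15. The remaining probe set, on U74Cv2, read 306.5 in Null and 52.6 in WT, which is under the floor there. Dnajc2 thus had more signal in Null in each probe set. Dnajc5, the cysteine string protein of vesicles, stood at -0.01, Dnajc7, which binds both HSP70 and HSP90, at 0.06, and Dnajc30 of mitochondria at -0.16. Dnajc11, a mitochondrial J protein of the complex that shapes the inner membrane, read 355.5 in Null and 141.7 in WT. Its log2 ratio of 1.32, or 2.49-fold higher in Null, was the largest among members above the floor on both arrays. It rests on 1 dim probe set on U74Av2, where the spread at low level was 0.35, and no other probe set was named Dnajc11. Among the other J proteins of the endoplasmic reticulum, Dnajc3, an inhibitor of the kinase PERK and a partner of Hspa5, read 939.8 in Null and 765.6 in WT, at 0.29. Its 3 other probe sets above the floor ran from 0.08 to 0.24. Dnajc10, a disulphide reductase, stood at -0.10, and Dnajc1 stood at -0.54 on U74Bv2 and 0.29 on U74Av2. Among Dnajc3, Dnajc10 and Dnajc1, only Dnajc3 thus had all its probe sets above the floor on the higher side. In class B this held for Dnajb9 too, and for the only probe set of Dnajb11.

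None of the other class C genes reached 1.5-fold, though their tasks range widely. Dnajc9, a histone cochaperone, read 1621.5 in Null and 1821.2 in WT, at -0.18 beside a spread of 0.15. Dnajc21, a factor of ribosome assembly, read 1016.8 in Null and 720.7 in WT, at 0.47, with 0.05 to 0.38 in its other probe sets. Dnajc24, of diphthamide synthesis, stood at -0.22. Dnajc21 was above 0 in each of its probe sets on the 3 chips. Dnajc15, of the mitochondrial import motor, stood at -0.13, Dnajc18 at -0.22, Dnajc28 at -0.27 and Dnajc12 at -0.41. Dnajc14 and Dnajc4 were near even at -0.09 and 0.10. Dnajc16, Dnajc27 and Dnajc17 stood at 0.34, 0.29 and 0.29. The other probe set of Dnajc16, on the same chip, gave -0.32. Dnajc25 shows how far probe sets can part, with -0.57 and 0.89 on the same chip.

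CCT subunit genes stood slightly higher in Null. The ring has 8 different subunits, and all 8 genes were measured on U74Av2. Of these, 7 had a log2 ratio above 0, with a median of 0.21. Among the 2638 genes on that chip at or above the dimmest of these subunits in level, 50.4% were above 0 and the median was 0.00. Other members on U74Av2 also lay on the higher side. Over all 45 members taken from that chip, the ring included, 32 were above 0 with a median of 0.15, and with U74Av2 alone the medians of class B, class C and HSP70 were 0.21, 0.18 and 0.15. The ring was not tested against these. Cct6a read 1331.5 in Null and 931.7 in WT, a log2 ratio of 0.51 from a probe set that may be shared within a sequence family. Cct5 read 7058.3 in Null and 5285.5 in WT, at 0.41. Cct8 read 3103.9 in Null and 2377.2 in WT, at 0.38. These 3 were the highest of the ring. Cct7 read 4968 in Null and 4132.6 in WT, at 0.26, and Cct4 read 3859.8 in Null and 3419.6 in WT, at 0.17. Cct2, Tcp1 and Cct3 were near even, at 0.12, 0.07 and -0.02. Of the 8 differences 5 were larger than the spread between probe sets of 1 gene at their level, as were those of 1128 of the 2638 genes. None reached 1.5-fold.

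Other probe sets bore out part of this. Cct6a was higher in Null on U74Cv2 too, at 407.7 in Null and 240.2 in WT, or 0.74. Cct5 had a dim second probe set that read 392.2 in Null and 425.5 in WT, at -0.13. Tcp1 stood at -0.70 on U74Cv2, from 132.4 in Null and 211.1 in WT, both near the floor of 124. Cct3 had 3 others, at 0.04, -0.31 and -0.39. With the mean over the probe sets of a gene above the floor on both arrays, 6 of 8 ring subunits were above 0 and the median was 0.15. Markers of germ cells and Sertoli cells differed between the genotypes in both directions, as given above, and their part in the CCT values was not tested.

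**Figure D2:**
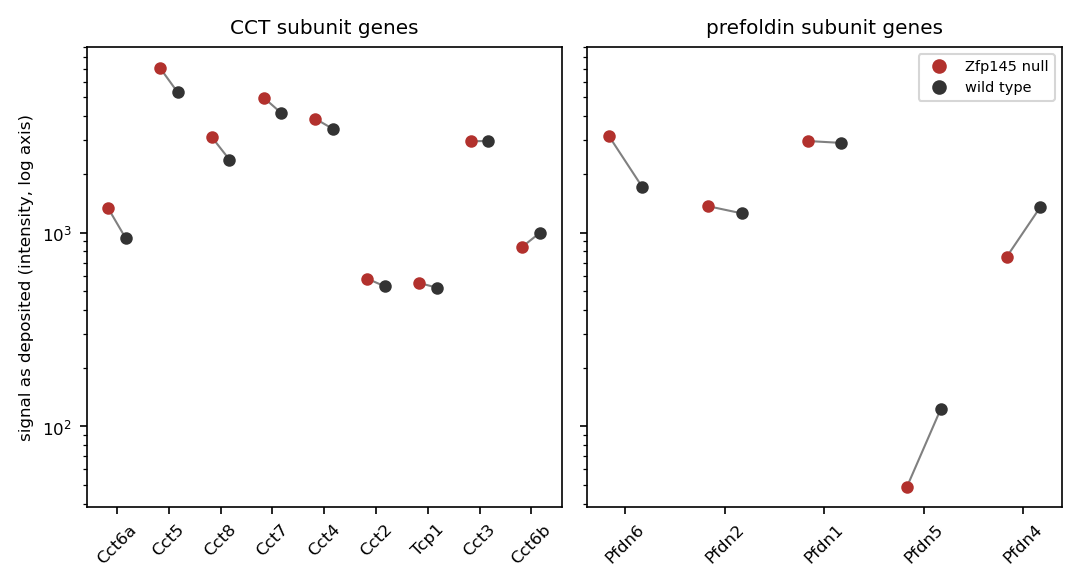
Deposited signal (intensity, log axis) of each measured CCT gene (left) and prefoldin gene (right), 1 array per genotype, with Null in red left of WT in black and a line joining the pair. The genes are ordered by ratio, and each is to be read only against itself. Null lies above WT for 7 of the 9 CCT genes, and Pfdn6 and Pfdn4 differ in opposite directions.

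Prefoldin genes had no common direction. Pfdn6 read 3164 in Null and 1713.3 in WT on U74Av2, a log2 ratio of 0.88 or 1.84-fold higher in Null, where the spread was 0.15. On U74Cv2 another probe set read 2078.8 in Null and 1751.1 in WT, at 0.22, the same direction and a smaller size. Pfdn4 read 747.4 in Null and 1354.5 in WT on U74Bv2, a log2 ratio of -0.86 or 1.82-fold lower in Null, where the spread was 0.23, and no other probe set was named Pfdn4. Pfdn1 stood at 0.01 and Pfdn2 at 0.11. The Pfdn1 value rests on a probe set that may be shared within a sequence family. Its 4 other probe sets lay under the floor in both genotypes. Pfdn5 read 49 in Null and 123.5 in WT, with Null under the floor of 98.3, so that Null was at least 1.26-fold lower. The family median was 0.01 over 5 members. Vbp1, which encodes another prefoldin subunit under a name the rule does not cover, read 1304.9 in Null and 1295.4 in WT, at 0.00.

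Probe sets of the same member often parted in direction. Of 31 members with at least 2 probe sets above the floor on both arrays, 15 had all of them on the same side of 0 (48.4%), against 46.2% of 3997 genes. The median range between such probe sets was 0.48 over the members and 0.40 over all genes. Members whose probe sets all stood above 0 were Dnajc2, Dnajc3, Dnajc21, Dnajb4, Dnajb9, Hspa14, Cct6a and Pfdn6. Hspa2, Hspa4l, Hspb2, Dnajc8, Dnajc15, Dnajc18 and Cct6b had all of theirs below 0. For the other 16 members the direction thus depends on the probe set.

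**Figure D3:**
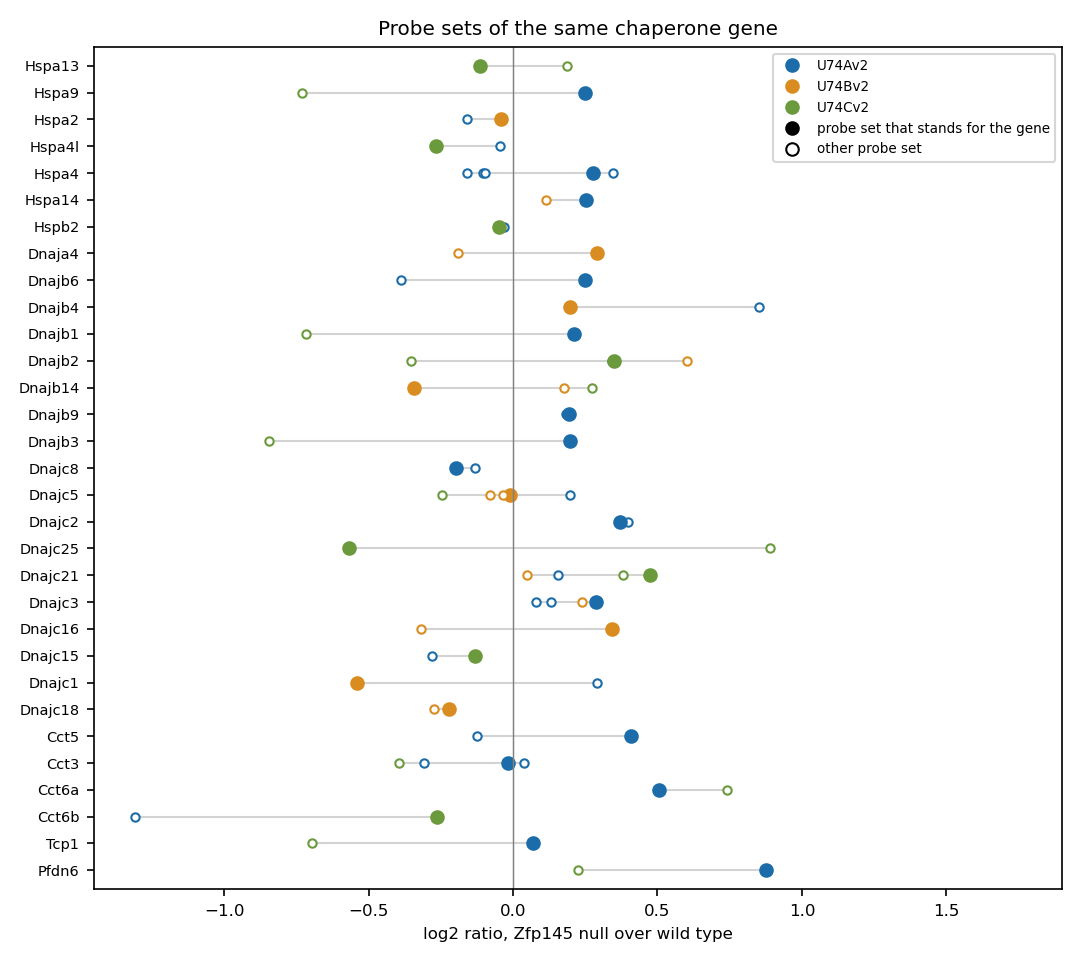
Log2 ratio of Null over WT (horizontal axis) of every probe set above the floor on both arrays, for the 31 members with at least 2 of them, coloured by chip. Filled points are the probe sets that stand for the gene, open points the others, and grey lines join probe sets of 1 gene. The points of 16 genes lie on both sides of 0.

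The chips also differed in the direction of their members. On U74Av2 32 of 45 members were above 0, with a median of 0.15. On U74Bv2 only 5 of 19 were, with a median of -0.12, and on U74Cv2 5 of 13, with a median of -0.11. Over all genes 48.0%, 48.8% and 48.8% were above 0 on these chips. With U74Av2 alone the class C median was 0.18, against -0.09 with all chips.

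Genes that work beside the members were mostly even. Of a list of 60 cochaperones and folding enzymes 55 were found and 53 measured, with a median of 0.00 and 27 above 0. In Null 2 were higher by 1.5-fold, Canx, the lectin chaperone calnexin, at 0.76 and Hscb, a J-type cochaperone of iron-sulphur cluster assembly, at 0.61. The spread was 0.35 for each. None was lower by that much, though Tbca and Manf stood at -0.56 and -0.43, where the spread was 0.15. These genes were singled out after their values were seen. Over all 12434 genes 660 were higher and 786 lower in Null by 1.5-fold. Within 1.25-fold lay 43 of the 53 (81.1%), against 67.7% of all genes and 75.0% of those on U74Av2, the chip of 34 of the 53. Among the 2638 brighter genes on U74Av2 that were set beside the CCT ring, the share was 82.9%.

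**Figure D4:**
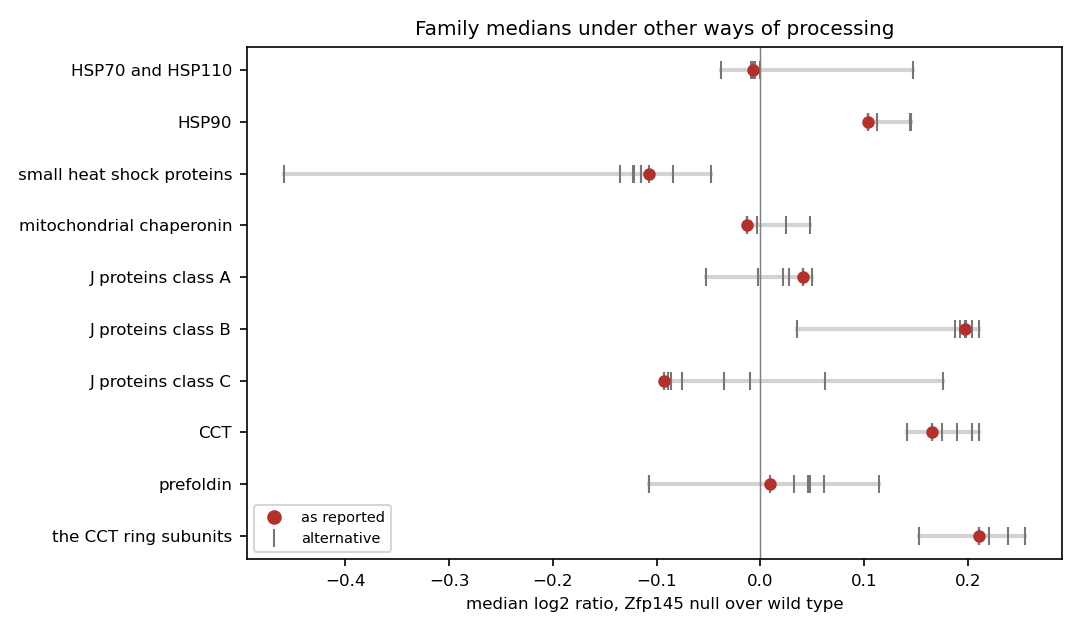
Median log2 ratio of Null over WT (horizontal axis) of each family and of the CCT ring subunits, as reported (red points) and under the other ways of processing (grey ticks). The medians of the CCT ring (0.15 to 0.26), of HSP90 (0.10 to 0.15) and of class B (0.04 to 0.21) lie above 0 in each. The HSP90 median moved only with the scaling, since the other settings left its genes unchanged. The medians of HSP70, the mitochondrial chaperonin, class A, class C and prefoldin lie on both sides of 0.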

How the data were processed

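The data were 6 single-colour expression arrays, 1 Null and 1 WT on each of 3 chips, grouped by the sample titles. The deposited values were linear intensities per probe set, made by the authors with steps that no header or label records. Their 2% trimmed mean was 500.3 on U74Av2 and U74Cv2 and 500.1 on U74Bv2 in both genotypes, so each array appears scaled to a common target. Their software is not given in the sources used here. Precision is limited by the number of arrays.

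Each chip was processed on its own, without its 66 control probe sets. Null was divided by the median ratio over the upper 50% of probe sets by mean rank, a log2 shift of 0.01, 0.00 and 0.02. Printed signals are those deposited, and ratios are after this step. Values under the 40th percentile of both arrays (98.3, 165 and 124) were raised to it before log2 of Null over WT. Names came from GEO's platform annotation, with 29131 probe sets of 1 symbol, of which 29044 matched RefSeq (GRCm38.p6) by Entrez identifier with no symbol changed. A further 3 probe sets of Dnajc19 carry several symbols and were not used. A gene was taken from its probe set of the highest rank within a chip, and 12 of the 77 measured members rest on a probe set whose name has a suffix, which can mark shared or relaxed design. Spread is the scaled median absolute difference between probe sets of 1 gene on 1 chip over the square root of 2, in 3 ranges of level. It covers no difference between animals.

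No test was made. The members and lists were chosen with earlier results of these data known, and the groups by role with the values in view. Genes named were all measured members of HSP90, the mitochondrial chaperonin, CCT and prefoldin, the 5 of highest rank in every other family, each member past 1.5-fold or at the floor on 1 array, and Zbtb16. Others are named as examples. Protein sequences were not analysed here. Figures were drawn with matplotlib 3.10.9, and loess ran in statsmodels 0.14.6, under Python 3.11.15 with pandas 2.3.3, numpy 2.4.6 and scipy 1.17.1, and the steps were tested on simulated data. Alternatives were no scaling, quantile normalization, loess on level, a lower floor (20th percentile) and a higher floor (60th), the mean over probe sets, probe sets without a suffix, and fewer chips. The mean took only probe sets above the floor on both arrays.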

Additional observations from a re-analysis of the deposited data

How the results depend on the processing

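Across 9 alternatives, 89 of 90 recomputed medians of families and of the CCT ring moved by less than the spread between probe sets. The exception was the small heat shock family, at -0.46 over 3 members with U74Av2 alone, which leaves fewer genes. This count says little about stability, since the spread is that of single genes and is wide for a median. Many settings also left a median unchanged. Those of HSP90 and the mitochondrial chaperonin did not move under either floor, the mean over probe sets, probe sets without a suffix or fewer chips. The other sign was taken by 9 medians, all near 0 in the main setting. These were HSP70 and HSP110 (0.15) and class C (0.18) with U74Av2 alone, class C (0.06) and prefoldin (-0.11) with the probe sets without a suffix, prefoldin (-0.11) without U74Cv2, the mitochondrial chaperonin after quantile normalization (0.05) and loess (0.02), and class A with the mean over probe sets (-0.00) and with U74Av2 alone (-0.05). Against 2 in the main setting, 5 members were at least 2-fold different under the lower floor (20th percentile), 0 under the higher (60th) and 1 with probe sets without a suffix, which leaves Hspb1 out. At 1.5-fold the counts under these floors were 8 and 2, against 5. Fewer genes are measured under a higher floor, 66 against 80. With it Dnajc11 stood at 0.25 and Hspb1 at a bound of 0.26, and under the lower floor the bound of Hspb1 was 3.05. Of 382 recomputed values of 45 named genes, 364 moved by less than the spread, many because the setting left the value unchanged. No gene past 1.5-fold changed sign, though few settings could change one. Dnajc11 and Pfdn4 have no other probe set, and the other set of Hspb1 lay under the floor in both genotypes. The Dnajb12 set of opposite order, with WT under the floor, is not used in the mean. The genes past 1.5-fold did differ by setting. Pfdn6 was not among them with the mean over probe sets (0.55). Cct6a and Cct6b were with that mean, Cct6a and Dnajc25 with probe sets without a suffix, Cct6b and Dnajb2 without U74Cv2, Cct6b and Dnajb4 with U74Av2 alone, and Dnajb5, Hspb9 and Pfdn5 under the lower floor. After quantile normalization 3 members were at least 2-fold different. The class B median was 0.04 with the mean over probe sets. The ring median was the same 0.21 under both floors, without a suffix and with fewer chips, settings that move few or no ring genes. Tcp1, Hspa9, Dnajb1 and Dnajb6 turned to -0.31, -0.24, -0.25 and -0.07 with the mean over probe sets. Cct6b was -1.31 without U74Cv2. With 1 array per genotype and chip, no replicate could be left out. A probe set near the floor gives a bound or a wide spread.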

Other observations

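Of the measured members 4 lie on chromosome 9, which also carries Zbtb16. Hspa8 stood at a log2 ratio of 0.15, Dnajc13, a J protein of endosomes, at 0.33, Dnaja4 at 0.29, or 0.05 as the mean over its probe sets, and Hspb2 at -0.05. Of these, Dnajc13 read 499.1 in Null and 394.1 in WT.

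Folding genes of the endoplasmic reticulum and of mitochondria were grouped after their values were seen. The 10 of the endoplasmic reticulum had a median of -0.08, with 4 above 0, and the 7 of mitochondria a median of 0.00, with 4 above 0. A further cytosolic set, grouped as heat-induced, held 8 genes: Hspa1a, Hspa1b, Hspa8, Hsph1, Hsp90aa1, Dnaja1, Dnajb1 and Hspb1. It includes Hspa8, named above as constitutive, so it is not a set of heat-induced genes alone. Its median was 0.15, midway between Hspa8 and Hsp90aa1, with 6 above 0 and with Hspb1 at its bound. Of these 8 genes 7 were measured on U74Av2, where the median over all members was likewise 0.15.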
